A study of Mus musculus with 20 samples.

Results

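The genes described here are 9 cytochrome P450 genes of the mouse Cyp2a, Cyp2b, Cyp2d and Cyp2e subfamilies (Cyp2a4, Cyp2a5, Cyp2b10, Cyp2d9, Cyp2d10, Cyp2d12, Cyp2d22, Cyp2d26 and Cyp2e1) together with Por, chosen by gene symbol among the 24762 genes of the joined count tables. All 10 were found, and all 10 passed the filter on low counts that left 15549 genes to test. They were measured by poly(A) RNA sequencing in kidneys of orchidectomised male mice on a C57BL/6J background, collected after 4 days of replacement with testosterone or with vehicle. Wild type mice and ARLmon/Y mice, males whose single androgen receptor gene carries the Lmon allele, each gave 5 vehicle and 5 testosterone libraries. All 4 groups had lost their testes, so the vehicle groups are androgen-depleted and not intact males. The dose, the vehicle and the age of the mice were not given in the sources used here, nor was it stated that each library is 1 mouse, so the p-values measure the spread between libraries.

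The androgen receptor binds testosterone and then regulates genes in the nucleus. The Lmon allele was designed to disturb contact between the ligand-binding domains of a receptor pair, and it is carried in the germline, so every tissue has it. Cytochrome P450 enzymes of family 2 sit in the endoplasmic reticulum and oxidise drugs, toxicants, steroids and fatty acids. Por, NADPH-cytochrome P450 reductase, hands electrons to all of these enzymes. In mice many P450 genes differ between the sexes in liver and in the proximal tubule of the kidney.

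Total counts ran from 8342000 to 38101526 per library, and levels are given as CPM, read counts divided by a library size scaled by TMM. A difference was called at a Benjamini-Hochberg adjusted p below 0.05 over all 15549 genes, by the quasi-likelihood test of edgeR, the source of every log2 difference below unless another is named. The kidney label was checked against markers. The 8 proximal tubule markers (such as Lrp2 and Slc34a1) summed to 9825 to 16328 CPM in wild type under vehicle. Under testosterone the wild type sums were 16619 to 18798 CPM. In ARLmon they were 10534 to 13037 CPM under vehicle and 11616 to 14005 under testosterone, below every wild type testosterone library. Of 10 hepatocyte markers 7 were measured, and they summed to 99.3 to 137 CPM in wild type under vehicle, 129 to 166 under testosterone, and to 48.1 to 75.3 and 57.5 to 94.6 CPM in the same ARLmon groups. They did not move together. Under vehicle Fabp1 was 5.07-fold higher in ARLmon, and Serpina1a was 8.36-fold and Ttr 2.21-fold lower. Under testosterone Alb and Fabp1 were higher in ARLmon, and Serpina1a and Ttr were lower. Cyp3a11, an abundant liver P450, stayed at or below 0.363 CPM, and Alb (albumin) lay between 1.72 and 18.1 CPM. Both distal tubule markers (Calb1 and Slc12a3) were higher in ARLmon under both treatments, beside 1.99% of all genes tested under vehicle and 15.6% under testosterone. The part of these cell types in the results was not tested. In bulk tissue, fewer cells of a type and less RNA per cell cannot be told apart.

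Testosterone in wild type moved 5 of the 10 genes past the threshold, where 15.7% of all genes tested were called. Cyp2e1, Por and Cyp2d9 rose (9.36% of all genes tested rose), and Cyp2d26 and Cyp2d22 fell (6.36% fell). In 4 of the 10, Cyp2e1, Por, Cyp2d26 and Cyp2d22, the 5 testosterone libraries did not overlap the 5 vehicle libraries, against 12.6% of all genes tested. In ARLmon mice testosterone moved 0 of the 10 genes past the threshold by edgeR, by DESeq2 and by limma-voom, beside 0.0% of all genes tested. One of the 10, Cyp2d9, had an unadjusted p under 0.05 there, as did 813 genes in all. None of the 10 had ARLmon groups that did not overlap, beside 0.778% of all genes tested.

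Set against wild type under vehicle, ARLmon kidneys differed in 5 of the 10 genes, where 4.37% of all genes tested were called. Cyp2d9, Cyp2e1, Cyp2d10 and Cyp2a4 were lower (2.38% of all genes tested were lower) and Cyp2d26 was higher (1.99% were higher). Under testosterone the genotypes differed in 8 of the 10, where 31.1% of all genes tested were called. Cyp2b10, Cyp2e1, Cyp2d9, Cyp2d10, Cyp2a4 and Por were lower in ARLmon (15.5% of all genes tested), and Cyp2d26 and Cyp2d22 were higher (15.6%). In each of these comparisons the called genes were also those whose libraries did not overlap, against a background of 4.57% under vehicle and 22.5% under testosterone. Cyp2b10 and Cyp2d10 reached at most 0.0856 and 0.527 CPM in ARLmon libraries. They passed the filter on low counts only through wild type libraries, which limits what their place among the genes lower in ARLmon can show. The comparisons of genotype and of treatment share groups, so their values are not independent of each other.

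**Figure D1:**
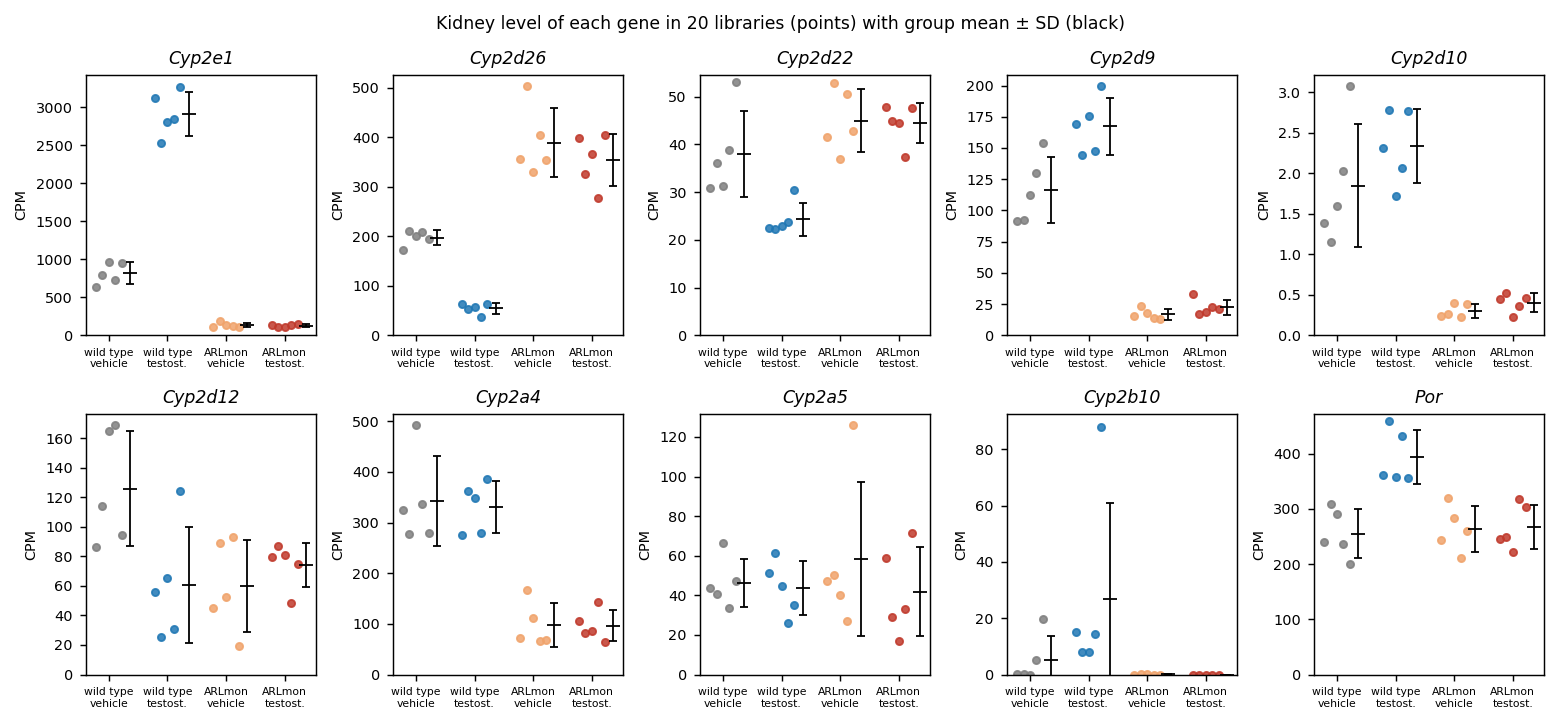
Level in CPM of the 10 genes in each of the 20 libraries, 1 panel per gene with its own linear axis from 0, points for libraries and black marks for the group mean ± SD (n = 5). Cyp2e1 stood near 2912 CPM in the wild type testosterone group and near 130 CPM in both ARLmon groups, Cyp2d26 showed the opposite order, and Cyp2b10 was close to 0 in all ARLmon libraries.

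Cyp2e1 oxidises ethanol, acetone, paracetamol and other small molecules. It lies on the forward strand of chromosome 7 at positions 140763739 to 140774987 of GRCm38 (GENCODE M21). Its promoter is shown with that of Cyp2d26 because these were the genes whose response to testosterone was called different between genotypes, with opposite signs. Each sequence is the 250 bases before the RefSeq start (GRCm38.p6), 5′ to 3′ on the gene's strand, chr7:140763569-140763818 on the forward strand for Cyp2e1 and chr15:82794246-82794495 on the reverse strand for Cyp2d26. Capitals mark matches to TATAAA (the TATA box), AGAACA (a half-site of the androgen receptor) and GTTAAT, each searched on both strands. On the other strand the TATA box reads TTTATA. The androgen receptor half-site then reads TGTTCT, and GTTAAT reads as ATTAAC.
Cyp2e1: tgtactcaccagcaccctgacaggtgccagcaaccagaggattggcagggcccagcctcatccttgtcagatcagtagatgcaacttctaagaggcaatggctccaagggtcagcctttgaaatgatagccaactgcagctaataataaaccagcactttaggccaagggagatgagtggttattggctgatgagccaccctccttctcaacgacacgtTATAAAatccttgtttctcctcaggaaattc
Cyp2d26: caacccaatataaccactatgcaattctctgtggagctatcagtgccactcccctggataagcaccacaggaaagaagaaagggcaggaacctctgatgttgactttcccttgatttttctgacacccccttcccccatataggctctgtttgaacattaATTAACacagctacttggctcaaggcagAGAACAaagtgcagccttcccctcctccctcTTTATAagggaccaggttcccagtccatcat
Both windows hold a TATA match that begins 31 bases before the start. The Cyp2d26 window also holds AGAACA 62 bases and ATTAAC 90 bases before it, and the Cyp2e1 window holds neither. AGAACA was also in the window of Cyp2d10, 210 bases before its start, and GTTAAT in those of Cyp2a4 and Cyp2a5. Among 32851 promoters of the same length, 12.4% held TATAAA, 16.1% AGAACA and 6.43% GTTAAT on either strand. The full androgen response element, the half-site followed after 3 bases by its reverse complement, was in 0.00913% of them and in none of the 8 promoters matched to these 10 genes. A match of letters is not a site of binding.

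In the wild type vehicle libraries Cyp2e1 stood at 634, 798, 964, 724 and 952 CPM, in the order of the library codes GC078602 to GC078606. With testosterone, wild type libraries GC078607 to GC078611 stood at 3115, 2524, 2801, 2849 and 3271 CPM. All 5 were above every vehicle library, and the means were 814 ± 143 and 2912 ± 290 CPM (SD, n = 5). The log2 rise was 1.84 ± 0.15 (SE), a 3.58-fold change with an adjusted p of 1.24e-08 by edgeR. In ARLmon under vehicle, GC078617 to GC078621 stood at 109, 183, 136, 119 and 114 CPM. In ARLmon under testosterone, GC078612 to GC078616 stood at 139, 109, 106, 135 and 148 CPM, and the ARLmon groups overlapped. Testosterone in ARLmon moved it by -0.05 on the log2 scale (95% interval from -0.36 to 0.25, adjusted p = 0.919, edgeR).

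The testosterone effect on Cyp2e1 itself differed between genotypes, by -1.89 ± 0.21 on the log2 scale (adjusted p = 4.06e-06, edgeR). It was 1 of 2 of the 10 genes for which this interaction was called, where 4.77% of all genes tested were (3.34% with a negative and 1.42% with a positive sign). Between genotypes, ARLmon was 6.17-fold lower than wild type under vehicle (log2 difference -2.62 ± 0.15, adjusted p = 1.59e-10, edgeR). Under testosterone ARLmon was 22.9-fold lower (log2 difference -4.51 ± 0.17, adjusted p = 2.91e-14, edgeR). ARLmon mice that had received testosterone were still 6.39-fold below wild type mice that had received vehicle (adjusted p = 1.27e-10, edgeR). That comparison called 5 of the 10 genes, Cyp2e1, Cyp2d9, Cyp2d10, Cyp2a4 and Cyp2d26, against 3.03% of all genes tested. The first 4 were lower (background 1.78%) and Cyp2d26 was higher (background 1.25%), and none of the 5 overlapped between groups (background 3.9%).

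The 8 markers of the straight proximal tubule were read beside Cyp2e1. In wild type 6 of these 8 markers rose with testosterone and none fell, beside 9.36% and 6.36% of all genes tested. Among those that rose were Atp11a, a phospholipid flippase (6.49-fold), Acy3 (log2 1.62 ± 0.18) and the organic anion transporter relative Slc22a30 (log2 2.47 ± 0.29). The summed level of the 8 was 1396 to 2505 CPM in the wild type vehicle libraries and 8145 to 9847 CPM in the wild type testosterone libraries. In ARLmon it was 1059 to 2414 CPM under vehicle and 1557 to 3097 CPM under testosterone. The vehicle sums overlapped between genotypes. Under vehicle 4 of the 8 were lower in ARLmon, beside 2.38% of all genes tested: Slc7a13 (136-fold), Slc22a30 (6.82-fold), Atp11a (2.20-fold) and Acy3 (1.83-fold). Aadat, an aminotransferase, was 2.93-fold higher (1.99% of all genes tested were higher). Under testosterone the same 4 were lower in ARLmon, beside 15.5% of all genes tested. Slc22a13 and the glucose transporter Slc5a1 were 1.44-fold and 1.30-fold higher (15.6% of all genes tested were higher). All 8 markers of the whole proximal tubule were measured. With testosterone in wild type 3 rose (Slc22a6, Slc27a2 and Hnf4a) and Slc5a2 fell, beside 9.36% and 6.36% of all genes tested. Between genotypes under vehicle, Slc22a6 was lower in ARLmon and none was higher (2.38% and 1.99% of all genes tested). Between genotypes under testosterone, Slc22a6, Slc27a2 and Hnf4a were lower in ARLmon and none was higher (15.5% and 15.6%). The part of these cells in the Cyp2e1 result was not tested.

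Cyp2d26 belongs to a family whose human member metabolises many drugs. It lies on the reverse strand of chromosome 15, at 82790101 to 82794294 (GRCm38), in a cluster that holds the other Cyp2d genes too. Cyp2d26 stood at 173, 209.6, 201, 209.5 and 194 CPM in the wild type vehicle libraries. Under testosterone the wild type libraries fell to 62.9, 52.1, 57.3, 35.9 and 63.0 CPM. The groups did not overlap, and the change was 3.64-fold (197 ± 15.3 against 54.2 ± 11.2 CPM, log2 -1.87 ± 0.15, adjusted p = 8.86e-09, edgeR). ARLmon libraries held 356, 503, 329, 404 and 354 CPM under vehicle. Under testosterone they held 398, 325, 365, 278 and 404 CPM. Every ARLmon library was above every wild type library, and the ARLmon groups overlapped each other (log2 -0.14, interval -0.43 to 0.16, adjusted p = 0.789, edgeR).

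ARLmon was 1.97-fold above wild type for Cyp2d26 under vehicle (log2 0.98 ± 0.14, adjusted p = 0.000162, edgeR). Under testosterone the difference was 6.54-fold (log2 2.71 ± 0.15, adjusted p = 1.41e-11). The interaction was 1.73 ± 0.20 on the log2 scale (adjusted p = 9.00e-06), opposite in sign to that of Cyp2e1. ARLmon under testosterone remained 1.79-fold above wild type under vehicle (adjusted p = 0.000956, edgeR).

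Cyp2d22, the other Cyp2d gene that fell, shares 77.7% of its coding bases with Cyp2d26. Its wild type vehicle libraries held 31.0, 36.1, 31.3, 38.9 and 53.1 CPM, and its wild type testosterone libraries 22.4, 22.2, 22.8, 23.7 and 30.5 CPM. The highest testosterone library lay just below the lowest vehicle library, and the fall was 1.55-fold (log2 -0.64 ± 0.14, adjusted p = 0.0029, edgeR). The ARLmon libraries held 37.0 to 52.9 CPM under vehicle and 37.5 to 47.9 CPM under testosterone, so that ARLmon was 1.82-fold higher under testosterone (adjusted p = 7.14e-05). Under vehicle the genotypes differed by 0.25 on the log2 scale (95% interval from -0.03 to 0.53, adjusted p = 0.359, edgeR). The interaction was 0.62 ± 0.20 on the log2 scale and was not called (adjusted p = 0.0779, edgeR). It was called by DESeq2 (adjusted p = 0.0484), with library size as the only scaling, on the deposited log2 values, and by edgeR without any one of GC078602, GC078604 or GC078611 (lowest adjusted p = 0.0355).

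**Figure D2:**
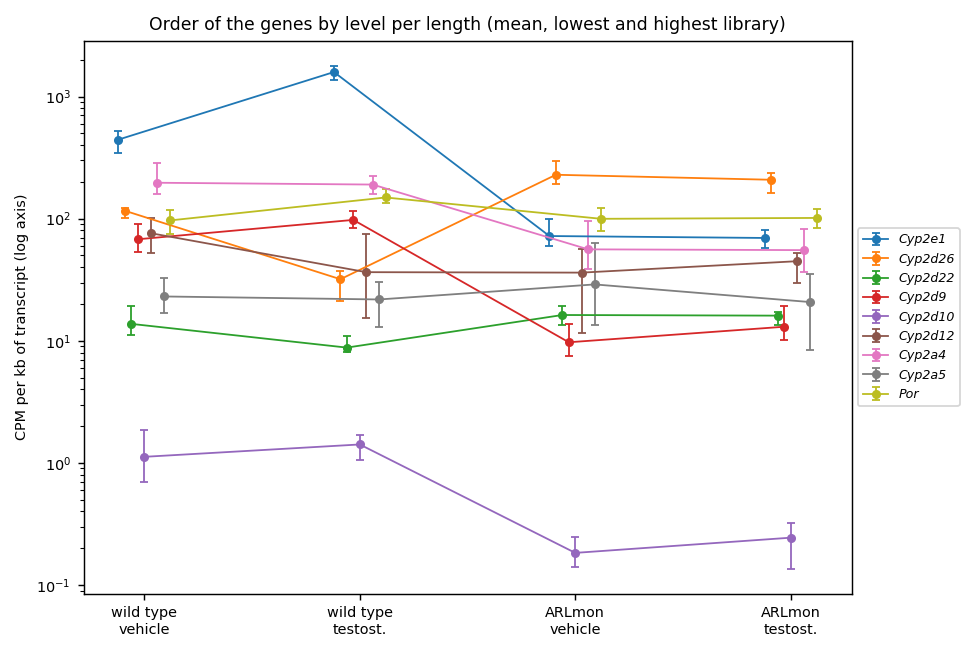
Mean level per kb of transcript of 9 of the genes in the 4 groups on a log axis, with bars from the lowest to the highest of 5 libraries and lines that join the values of a gene. Cyp2e1 led in both wild type groups at 444 and 1589 CPM per kb, and Cyp2d26 led in both ARLmon groups at 229 and 208 CPM per kb. The deposited log2 values instead put Por and Cyp2e1 above Cyp2d26 in ARLmon, and Por and Cyp2d9 above Cyp2a4 in wild type.

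Divided by transcript length, the levels of the genes fell in a different order in each genotype. In wild type under vehicle Cyp2e1 led at 444 CPM per kb, ahead of Cyp2a4 at 197 CPM per kb and Cyp2d26 at 116 CPM per kb, and the libraries of these 3 genes did not overlap each other. Por at 96.8 CPM per kb, Cyp2d12 at 76.0 and Cyp2d9 at 67.8 CPM per kb followed, each overlapping the one before it, and Por also overlapped Cyp2d26. In wild type under testosterone Cyp2e1 reached 1589 CPM per kb, and Cyp2d26 at 31.9 CPM per kb was behind Cyp2a4, Por, Cyp2d9 and Cyp2d12, of which only Cyp2d12 overlapped it. In ARLmon Cyp2d26 led at 229 CPM per kb under vehicle and 208 under testosterone. It was followed by Por at 99.7 and 101 CPM per kb and by Cyp2e1 at 72.1 and 69.5, and in both groups the ranges of Por and Cyp2d26 did not overlap. Cyp2e1 overlapped Por under vehicle and not under testosterone. Cyp2d10 was near the bottom in every group, from 0.183 CPM per kb in ARLmon under vehicle to 1.41 CPM per kb in wild type under testosterone. The deposited log2 values gave another order in both genotypes. In wild type Cyp2e1 led in these values too, but Por and Cyp2d9 stood above Cyp2a4 in every library. Under vehicle the wild type values were 9.18 to 9.79 for Por, 8.37 to 9.09 for Cyp2d9 and 7.26 to 7.97 for Cyp2a4. In ARLmon Por (9.35 to 9.94) and Cyp2e1 (8.71 to 9.39) stood above Cyp2d26 (6.86 to 7.59) in every library. The order of the genes thus depends on the measure, and the cause was not tested.

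Cyp2d9, a steroid 16-alpha-hydroxylase that in mouse liver is typical of males, differed far more between genotypes than with treatment. Wild type libraries held 91.5, 92.3, 113, 130.1 and 154 CPM of Cyp2d9 under vehicle and 169, 144, 176, 147 and 199 CPM under testosterone. The ranges overlapped, and the rise was 1.44-fold (log2 0.53 ± 0.18, adjusted p = 0.0487, edgeR). This call was close to the threshold: it was kept in only 7 of the 20 fits that each left out 1 library, and was lost with RLE factors (adjusted p = 0.0515) and with library size as the only scaling (0.134). ARLmon libraries held 15.03, 23.4, 18.01, 13.9 and 12.8 CPM under vehicle. Under testosterone they held 32.7, 17.3, 18.5, 22.4 and 20.6 CPM, 0.42 higher on the log2 scale (95% interval from 0.03 to 0.82) and not called (adjusted p = 0.774, edgeR). Between genotypes, ARLmon was 6.997-fold lower under vehicle (log2 -2.81 ± 0.19, adjusted p = 2.41e-09, edgeR) and 7.52-fold lower under testosterone (log2 -2.91 ± 0.19, adjusted p = 2.24e-10).

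Cyp2d10, whose coding sequence matches that of Cyp2d9 at 92.5% of bases, gave few reads. There were 192 reads of it over the 5 wild type vehicle libraries, 109 under testosterone, and 23 and 31 in ARLmon under vehicle and testosterone. It followed the genotype pattern of Cyp2d9: ARLmon was 5.74-fold lower under vehicle (adjusted p = 1.28e-05, edgeR) and 5.69-fold lower under testosterone (adjusted p = 1.27e-06). Cyp2d11, a neighbour that is not among the 10 genes, had 76, 38, 7 and 14 reads in the same order of groups, and was also called lower in ARLmon under both treatments. Like Cyp2d10, it passed the filter on low counts only through wild type libraries. In Cyp2d10 40.5% of the 50-base windows of the transcript occur exactly in another transcript, most often that of Cyp2d11, and in Cyp2d9 29.0% do. How reads that match more than 1 gene were counted is not given in the sources used here, so the values of these neighbours are uncertain.

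Cyp2d12, with 92.1% of its coding bases shared with Cyp2d9, had no called difference by edgeR with all libraries. Its wild type vehicle libraries held 86.3, 114, 165, 169 and 94.6 CPM and its wild type testosterone libraries 55.9, 25.4, 65.1, 31.1 and 124 CPM. Of the testosterone libraries 4 were below every vehicle library, and GC078611 lay within their range. The log2 difference of -1.06 ± 0.38 was not called (adjusted p = 0.0648, edgeR), but it was called without GC078611 (log2 -1.51, adjusted p = 0.00755), without GC078621 (adjusted p = 0.0351), by limma-voom (adjusted p = 0.0406), with library size as the only scaling and on the deposited log2 values (adjusted p = 0.0273 for each). ARLmon libraries held 45.1, 89.2, 52.5, 92.7 and 19.3 CPM under vehicle and 79.7, 86.9, 80.6, 48.7 and 74.9 CPM under testosterone. Under vehicle ARLmon was at -1.08 ± 0.38 on the log2 scale relative to wild type, the same sign as for Cyp2d9, and this was not called (adjusted p = 0.123, edgeR). Under testosterone the genotypes overlapped (log2 0.30, interval -0.50 to 1.09, adjusted p = 0.596). When the counts of Cyp2d9, Cyp2d10, Cyp2d11, Cyp2d12 and Cyp2d34 were summed, testosterone in wild type gave a log2 difference of -0.08 (adjusted p = 0.863), and ARLmon was lower by 1.67 under vehicle (log2 scale, adjusted p = 0.000282) and by 1.25 under testosterone (adjusted p = 0.000694, all by edgeR).

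**Figure D3:**
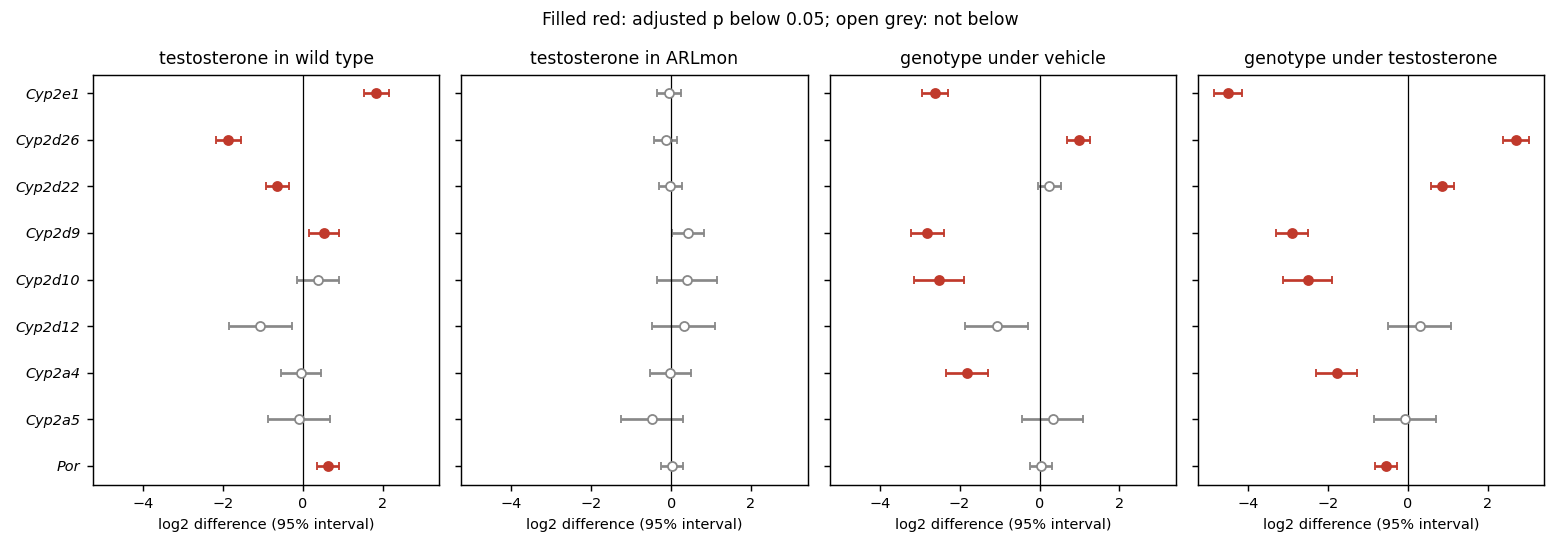
Log2 differences with 95% intervals for 9 of the genes in 4 comparisons, filled red where the adjusted p was below 0.05 (edgeR). Testosterone in ARLmon has no filled point, and under vehicle and under testosterone alike Cyp2e1, Cyp2d9, Cyp2d10 and Cyp2a4 lie to the left (lower in ARLmon) and Cyp2d26 to the right.

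Cyp2a4, steroid 15-alpha-hydroxylase, and Cyp2a5, coumarin 7-hydroxylase, are neighbours on the forward strand of chromosome 7, at 26307169 to 26315088 and 26835305 to 26843548 (GRCm38). Their coding sequences differ at 23 of 1485 aligned bases. The 250 bases before their starts are shown because they are nearly the same, while the levels of the genes behaved differently. They are chr7:26306942-26307191 for Cyp2a4 and chr7:26835089-26835338 for Cyp2a5 (RefSeq, GRCm38.p6, forward strand, 5′ to 3′), and capitals mark the 4 of 249 aligned bases that differ.
Cyp2a4: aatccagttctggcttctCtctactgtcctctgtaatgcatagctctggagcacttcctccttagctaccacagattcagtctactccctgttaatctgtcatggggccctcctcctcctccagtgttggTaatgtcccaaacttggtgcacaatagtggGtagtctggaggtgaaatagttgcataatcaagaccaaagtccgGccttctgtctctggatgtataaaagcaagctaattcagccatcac
Cyp2a5: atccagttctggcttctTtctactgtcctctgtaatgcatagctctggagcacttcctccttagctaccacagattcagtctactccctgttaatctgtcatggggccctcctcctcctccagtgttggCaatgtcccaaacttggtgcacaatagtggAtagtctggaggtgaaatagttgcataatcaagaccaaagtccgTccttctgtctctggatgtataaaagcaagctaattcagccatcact
Both windows hold TATAAA and GTTAAT and neither holds AGAACA, and none of the 4 differing bases lies in these matches.

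The wild type libraries of Cyp2a4 held 326, 277, 493, 337 and 279 CPM under vehicle and 276, 363, 349, 279 and 387 CPM under testosterone, so the groups overlapped (log2 -0.05, interval -0.55 to 0.45, adjusted p = 0.919, edgeR). ARLmon libraries held 72.7, 168, 111, 67.1 and 69.0 CPM under vehicle and 106, 81.5, 85.7, 143 and 63.5 CPM under testosterone. Every ARLmon library was below every wild type library. ARLmon was 3.52-fold lower under vehicle (log2 -1.81 ± 0.25, adjusted p = 7.60e-05, edgeR) and 3.44-fold lower under testosterone (log2 -1.78 ± 0.25, adjusted p = 1.13e-05). The testosterone difference in ARLmon was -0.02 (95% interval from -0.52 to 0.48, adjusted p = 0.987, edgeR). An antisense gene, Gm42375, overlaps Cyp2a4, and the strand setting of the counting is not given in the sources used here.

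Cyp2a5 showed no called difference in any comparison. Its levels were 33.8 to 66.2 CPM in wild type under vehicle, 26.3 to 61.3 under testosterone, 27.1 to 126 in ARLmon under vehicle and 16.8 to 71.3 under testosterone. The log2 difference between genotypes was 0.33 under vehicle (interval -0.43 to 1.10, adjusted p = 0.690, edgeR) and -0.07 under testosterone (interval -0.85 to 0.71, adjusted p = 0.914). Library GC078621 held the highest value, 126 CPM, and without it the vehicle difference was -0.17. The same library had the highest summed level of 3 fat markers (Adipoq, Cfd and Plin1), 405 CPM, beside a median of 166 CPM in its group. The other 3 groups reached 168 CPM (wild type, vehicle), 120.4 CPM (wild type, testosterone) and 204 CPM (ARLmon, testosterone). In GC078621 Cfd stood at 319 CPM and Adipoq at 69.7 CPM, the highest of their group, while Plin1 was highest in GC078619, at 20.3 CPM. The part of fat cells in the Cyp2a5 value was not tested.

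Of the reads assigned to either Cyp2a gene, Cyp2a4 took 85.5% to 90.9% in the wild type vehicle libraries and 84.3% to 91.6% in the wild type testosterone libraries. In ARLmon it took 35.4% to 76.9% under vehicle and 47.1% to 83.6% under testosterone. The genotypes did not overlap under either treatment. The mean share was 63.5% ± 16.9 against 88.0% ± 1.95 under vehicle and 70.0% ± 14.9 against 88.3% ± 3.34 under testosterone (SD, n = 5), each with a two-sided exact permutation p of 0.00794, the smallest that 5 against 5 can give (adjusted 0.0159 over 4 comparisons). Testosterone did not shift the share past the threshold in wild type (exact permutation p = 0.817) or in ARLmon (exact permutation p = 0.532). In Cyp2a4 38.0% of the 50-base windows of the transcript occur exactly elsewhere, mostly in Cyp2a5, so reads may have been moved between the pair. With both genes summed, ARLmon was lower by 1.32 under vehicle (log2 scale, adjusted p = 0.00043) and by 1.44 under testosterone (adjusted p = 2.09e-05, edgeR).

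**Figure D4:**
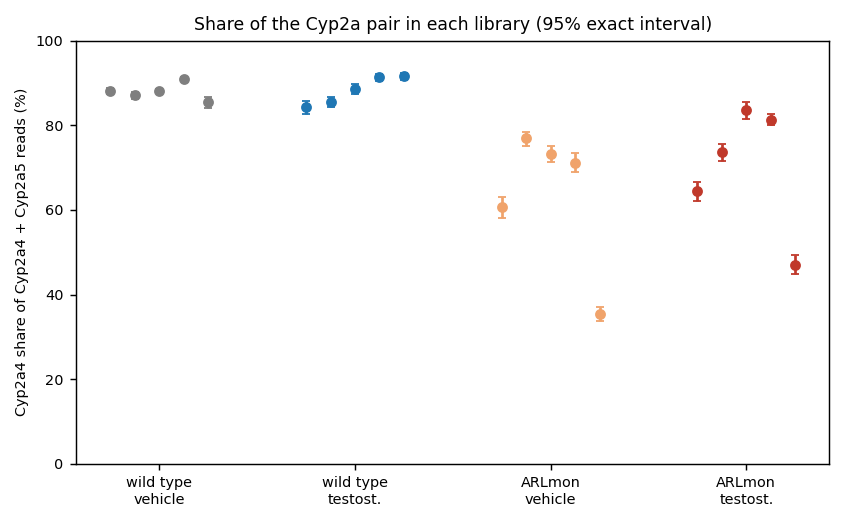
Share of Cyp2a4 among reads of Cyp2a4 and Cyp2a5 in each library, in percent, with 95% exact binomial intervals that cover counting error only. The 10 wild type libraries lie between 84.3% and 91.6%, and the ARLmon libraries spread from 35.4% to 83.6%.

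Cyp2b10, the P450 gene that phenobarbital and other activators of the receptor CAR are known for, was nearly absent from ARLmon kidneys. Its wild type testosterone libraries held 111, 66, 61, 194 and 887 reads, and all 5 ARLmon testosterone libraries held 0. With a floor of 3 reads set for the ARLmon group, the ratio of summed reads was 720-fold. The two-sided 95% counting interval begins at 585-fold and covers counting error only. GC078611 held 887 of the 1319 wild type reads, and without it these values were 301-fold and 244-fold. By edgeR, which takes in the spread between libraries, the log2 difference was -11.7 (95% interval from -16.5 to -6.91). With 0 reads in the ARLmon group, the reads do not fix the size of this value (3311-fold) or of its interval. It exceeds the 720-fold that the floor of 3 reads gives. The difference was called with all libraries (adjusted p = 0.000814, edgeR) and without GC078611 (adjusted p = 0.00204). The wild type vehicle libraries held 1, 2, 0, 198 and 174 reads, so GC078605 and GC078606 carried nearly all of them. The ARLmon vehicle libraries held 0, 1, 1, 0 and 0 reads. Summed over libraries, wild type under vehicle was 128 times ARLmon under vehicle, with a 95% counting interval of 35.2 to 1061, but this difference was not called (adjusted p = 0.0794, edgeR). The ratio was 74.6 without GC078606, and 1.78 without both GC078605 and GC078606 (interval 0.204 to 21.3). The difference was called by DESeq2 (adjusted p = 0.00274), and by edgeR without GC078604 (adjusted p = 0.0303) or without GC078611 (adjusted p = 0.046).

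Within wild type, testosterone gave a log2 difference of 2.60 ± 1.04 for Cyp2b10 that was not called (adjusted p = 0.103, edgeR). The levels were 0.0514, 0.104, 0, 5.22 and 19.8 CPM under vehicle and 15.1, 7.98, 8.09, 14.3 and 87.8 CPM under testosterone, and GC078606 lay above 4 of the testosterone libraries. Without GC078606 the rise was called (log2 4.11, adjusted p = 0.0117), and limma-voom called it with all libraries (adjusted p = 0.0024). Of the transcript's 50-base windows 10.2% occur exactly elsewhere, most often in Cyp2b13, which had 17 reads in the wild type testosterone group and 0 in the others.

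Por, the common electron donor, stood at 241, 308, 291, 236 and 199 CPM in the wild type vehicle libraries and at 362, 459, 357, 432 and 356 CPM under testosterone. The groups did not overlap, and the rise was 1.54-fold (log2 0.62 ± 0.13, adjusted p = 0.00233, edgeR). ARLmon libraries held 243, 319, 283, 210.1 and 259 CPM under vehicle and 246, 249, 222, 317 and 302 CPM under testosterone, and both groups overlapped wild type under vehicle. The testosterone effect in ARLmon was 0.02 (interval -0.25 to 0.30, adjusted p = 0.963), and under vehicle the genotypes differed by 0.04 (interval -0.23 to 0.32, adjusted p = 0.907). Under testosterone ARLmon was 1.47-fold lower (log2 -0.56 ± 0.13, adjusted p = 0.00323, edgeR). The interaction of -0.60 ± 0.19 was not called (adjusted p = 0.0774), but it was by DESeq2 (adjusted p = 0.0414), and by edgeR without any one of GC078604, GC078615 or GC078620 (lowest adjusted p = 0.043). GC078620 was also the library with the highest summed level of 4 adrenal cortex markers, 29.6 CPM, and with 9.01 CPM of Cyp11b1, an adrenal steroid enzyme at 0 in the other 3 groups, and the part of adrenal tissue in the Por value was not tested.

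Other genes that pass electrons to P450 enzymes were read from a list of 11, of which 9 were tested. With testosterone in wild type 3 rose and none fell, beside 9.36% and 6.36% of all genes tested. Cyb5a, cytochrome b5, rose by 1.11 ± 0.12 on the log2 scale (adjusted p = 4.99e-07, edgeR), Cyb5r3, its reductase, by 0.48 ± 0.11 (adjusted p = 0.00306) and the mitochondrial ferredoxin Fdx1 by 0.39 ± 0.13 (adjusted p = 0.0444). The median of the 9 was 0.09, beside -0.03 for all genes tested. In ARLmon 0 of the 9 were called, as for all genes tested (0.0%). For Cyb5a the interaction was -1.20 ± 0.16 (adjusted p = 6.66e-05, edgeR). Under testosterone 4 of the 9 were lower in ARLmon (15.5% of all genes tested) and Pgrmc1, a heme-binding membrane protein, was higher by 0.31 ± 0.08 (adjusted p = 0.00412).

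Heme is the cofactor of every P450. Of 12 genes of heme synthesis and breakdown, all tested, Cpox, coproporphyrinogen oxidase, rose with testosterone in wild type (log2 0.94 ± 0.21, adjusted p = 0.00392, edgeR), and none fell (9.36% and 6.36% of all genes tested). Cpox and Fech, ferrochelatase, were among the 4 of 12 that were lower in ARLmon under testosterone (log2 -1.46 ± 0.22 and -0.58 ± 0.12), and 1 was higher, beside 15.5% and 15.6% of all genes tested.

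Among 26 nuclear receptors and transcription factors linked to P450 control, 24 were tested, and with testosterone in wild type 4 rose and 4 fell, beside 9.36% and 6.36% of all genes tested. Nr1i2, the xenobiotic receptor PXR, fell by 1.45 on the log2 scale (adjusted p = 9.62e-07, edgeR). Bcl6, a repressor linked to male patterns of liver genes, rose by 2.24 ± 0.34 (adjusted p = 7.16e-05). In ARLmon 0 of the 24 were called with testosterone, as for all genes tested (0.0%). Under testosterone 5 were higher and 6 lower in ARLmon (15.6% and 15.5% of all genes tested), with log2 differences of 1.64 ± 0.16 for Nr1i2 and -2.80 ± 0.35 for Bcl6.

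Of 12 sex-biased kidney P450 genes of other subfamilies, 6 rose and 4 fell with testosterone in wild type (9.36% and 6.36% of all genes tested) and 0 were called in ARLmon (0.0%). These 12 were picked for their sex bias, with earlier results of these data known. A share above that of all genes was thus built into the list and is no test of it. Cyp4a12a, a fatty acid omega-hydroxylase, rose by 3.72 ± 0.27 on the log2 scale, Cyp2j13 by 3.13 ± 0.27 and Cyp4b1 by 1.92 ± 0.18 (adjusted p = 2.24e-09, 2.84e-08 and 8.05e-08, edgeR). Under vehicle 6 of the 12 were lower in ARLmon and none was higher (2.38% and 1.99% of all genes tested), beside 4 lower and 1 higher of the 10 genes described here. Of 17 further P450 genes related to or near the 10, 5 were tested. None of these 5 was called with testosterone in wild type, beside 15.7% of all genes tested. Under testosterone Cyp2s1 was higher in ARLmon (log2 0.56 ± 0.13, adjusted p = 0.0029) and Cyp2d11 lower (log2 -2.15 ± 0.52, adjusted p = 0.00329, edgeR).

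Libraries of 1 group differed to unequal degrees. The coefficient of variation of CPM between 5 libraries was 170% for Cyp2b10 in wild type under vehicle and 129% under testosterone. It was 67.0% for Cyp2a5 in ARLmon under vehicle and 65.1% for Cyp2d12 in wild type under testosterone. It was lowest for Cyp2d26 in wild type under vehicle (7.74%), Cyp2d22 in ARLmon under testosterone (9.44%) and Cyp2e1 in wild type under testosterone (9.96%).

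After each group's mean was subtracted, the log2 CPM of Cyp2e1 varied over the 20 libraries most closely with Cyp2d9 among the 10 genes (Pearson r 0.727, Spearman rho 0.701), and that of Cyp2b10 with Cyp2d22 (r 0.756, rho 0.636). Cyp2a4 and Cyp2a5 did not vary together (r -0.01, rho -0.03). Among all genes that averaged 5 CPM or more, the one most like Cyp2e1 was Farsb, a subunit of phenylalanyl-tRNA synthetase (r 0.891, and 0.811 without the 2 libraries farthest from the median). For Cyp2d26 it was Cpn1, a carboxypeptidase subunit (r 0.786, then 0.772), for Cyp2a4 the sugar transporter Slc5a10 (r 0.854, then 0.851), for Cyp2b10 the serine synthesis gene Psat1 (r 0.936, then 0.872), and for Por Acad10 (r 0.863, then 0.815). These are descriptions over libraries that share their depth and scaling, chosen as the highest of many, and no test was made.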

How the data were processed

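Kidney RNA of 20 libraries, 5 in each of 4 groups, was prepared with a stranded poly(A) kit, per the labels' protocols. Per the submitters' processing notes, FastQC 0.11.7, HISAT2, SAMtools 1.5, HTSeq 2.7.14, DESeq2 and the mm10 build were used, and their settings are not given in the sources used here. The authors deposited 4 tables of raw read counts per gene for pairs of groups, which were joined, with 12045 values absent from a pair table set to 0. A second deposited table holds log2 values of 20550 genes, whose normalization is not given in the sources used here, and served only as an alternative. Libraries of a group differed by more than counting noise (chi-square per degree of freedom 5.23 to 139).

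edgeR 4.0.16 in R 4.3.3 tested the counts by its quasi-likelihood method, with 4 group means over all 20 libraries, TMM scaling, the filterByExpr filter and Benjamini-Hochberg adjustment over 15549 genes. An SE was taken as the absolute log2 difference divided by the root of the F statistic. The test was checked on simulated counts. Named genes are the 10 members, up to 3 called genes with the smallest p from each list in the comparison of treatments in wild type and of genotypes under testosterone, related P450 genes that may share reads, and the genes most like a member. Cell type markers were named outside this rule, after their values were seen. The members and lists were chosen with earlier results of these data known. Alternatives used DESeq2 1.42.0, limma 3.58.1, other scalings and filters, summed paralog counts and each library left out. Sequences came from RefSeq (8 of 10 promoters matched) and positions from GENCODE M21. Alignments used mafft 7.526 and figures matplotlib 3.10.9. Some genes that the rule names are not reported here.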

Additional observations from a re-analysis of the deposited data

Results flagged for a closer look

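The effect of testosterone differed between genotypes for Cyp2e1 by -1.89 and for Cyp2d26 by 1.73 on the log2 scale, by the interaction term of edgeR.

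In 39 combinations of gene and group, the highest library stood apart from the other 4 of its group 5 times, in 4 distinct libraries. For independent groups of normally spread values chance flags about 1 in 20. The groups here share libraries and the spread of CPM was not checked, so no excess over chance can be read from this. GC078604 was the highest wild type vehicle library for Cyp2a4, at 493 CPM, with the next at 337 CPM. GC078621 was the highest ARLmon vehicle library for Cyp2a5, at 126 CPM, with the next at 50.3 CPM. For Cyp2b10, GC078606 stood at 19.8 CPM in wild type under vehicle and GC078611 at 87.8 CPM in wild type under testosterone, with the next libraries at 5.22 and 15.1 CPM. GC078611 was also the highest wild type testosterone library for Cyp2d22, at 30.5 CPM, with the next at 23.7 CPM.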

How the results depend on the processing

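The number of the 10 genes called stayed within 1.5 times its main value under all alternatives, except for the interaction: 2 were called, and 4 by DESeq2 and without GC078604 or without GC078611 (range 2 to 4 over libraries left out). Calls for testosterone in wild type ran from 4 to 7. Scaling by library size alone moved the median log2 difference of all genes to -0.18 for testosterone in wild type and to 0.28 between genotypes under testosterone, and the mean of Cyp2e1 in wild type under testosterone from 2912 to 2612 CPM. Values near 0 that changed sign were Cyp2a4 for testosterone in ARLmon (0.0214 with library size only, 0.0229 with limma-voom, 0.0387 on the deposited log2 values, -0.209 to 0.266 over libraries left out) and in wild type (-0.121 to 0.119 over libraries left out). So did Cyp2a5 between genotypes under testosterone (0.168 with library size only, -0.350 to 0.133 over libraries left out), with testosterone in wild type (-0.239 to 0.0787) and in ARLmon (-0.768 to 0.0176). Under vehicle Cyp2a5 turned to -0.522 on the deposited log2 values and ran from -0.172 to 0.513 over libraries left out. The others were Cyp2d22 with testosterone in ARLmon (0.00713 with library size only, 0.0470 on the deposited log2 values, -0.0801 to 0.0454 over libraries left out), Cyp2e1 in ARLmon (-0.113 to 0.0934), and Por in ARLmon (-0.0470 to 0.103) and between genotypes under vehicle (-0.0369 to 0.114, and -0.0925 without GC078605, GC078606 and GC078611, an alternative chosen after seeing the data). Summed paralog counts by their construction replace a gene by its cluster: -1.32 for Cyp2a5 between genotypes under vehicle, -0.0835 for Cyp2d9 and Cyp2d10 with testosterone in wild type, and -1.25 for Cyp2d12 between genotypes under testosterone. For other changes of sign the cause was not tested. No paired analysis was possible because the columns of the tables carry library codes and no replicate numbers. Cyp2d10 and Cyp2b10 had few reads in ARLmon, at most 9 in a library.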

Other observations

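The deposited log2 table and the counts rank some relatives differently. Cyp2d34 had at most 15 reads in any library, against 165 to 1476 for Cyp2d22, yet its mean in the deposited log2 table was 3.64, near the 4.02 of Cyp2d22. Over the 20 libraries the correlation between log2 CPM and the deposited value of a gene was lowest among the 10 for Cyp2a5 (Pearson r 0.801) and highest for Cyp2e1 (r 1.00), and the cause of the difference was not tested.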
